A study of Homo sapiens with 6 samples.

Results

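The genes described here are 37 genes of the NRF2 pathway and of the glutathione, thioredoxin and other antioxidant systems, chosen by name and found by symbol among the 37887 rows of the count table. RNA-seq had been performed on MDA-MB-436, a triple-negative breast cancer line with mutant BRCA1, after a vector for inducible expression of a MUC1 shRNA had been stably introduced. The 3 control libraries came from cells given 0.1% DMSO, and the 3 shMUC1 libraries from cells of the same line given 500 ng/ml doxycycline, which switches the shRNA on. Both groups carried the vector, and an effect of doxycycline itself cannot be told apart from that of the shRNA. Sample titles speak of control shRNA for the first group, but its treatment label and the series design give vehicle. The duration of treatment was not given for this line in the sources used here, and n = 3 refers to cultures, which the labels describe as triplicate without saying how they were separated, so p-values measure the spread between these libraries only.

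NRF2, encoded by NFE2L2, is a transcription factor that KEAP1 holds in the cytoplasm and delivers to the CUL3 ubiquitin ligase. Oxidants and electrophiles modify KEAP1, NRF2 then accumulates, pairs with a small MAF protein and binds antioxidant response elements near its target genes. Those targets supply glutathione, thioredoxin reductase, NADPH, quinone and heme detoxification and iron storage, and the pathway is often active in cancer cells that resist genotoxic drugs. Since NRF2 is controlled largely at the protein level, its mRNA is only part of its regulation.

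Total counts ran from 18678307 to 27825546 per library. MUC1, the targeted gene, was at 4.24, 3.45 and 3.95 CPM (counts per 1000000 counts of the library, on library sizes scaled by the TMM method) in control and at 2.61, 1.98 and 1.83 CPM in shMUC1 libraries, which edgeR's quasi-likelihood test put at -0.84 on the log2 scale (SE 0.214, adjusted p 0.00119). MUC1 fell without overlap of the groups, although it was low throughout. Of 5 markers of a mesenchymal breast cancer line, all were expressed. At an adjusted p under 0.05 by edgeR's test, 4 were lower in shMUC1 cells (VIM, ZEB1, CDH2 and AXL) and 1 was higher. The higher one was FN1, at a mean of 962 CPM in control and 1285 CPM in shMUC1 libraries. Of all tested genes, 23.6% were lower and 25.2% higher. Epithelial line markers summed to 5.46 to 8.09 CPM in control and 2.96 to 3.58 CPM in shMUC1 libraries over 8 genes, of which GRHL2 and OVOL1 were at 0 counts in all 6 libraries. The 4 leukocyte markers summed to 3.08 to 3.41 CPM in control and 5.48 to 8.54 CPM in shMUC1 libraries, with CD3E at 0 in all of them. Mitochondrially encoded genes took 3.70%, 4.17% and 3.35% of counts in control and 4.95%, 5.13% and 5.22% in shMUC1 libraries, without overlap. The part of these markers and of this share in the results below was not tested. In bulk RNA, fewer cells of a type and less RNA per cell cannot be told apart.

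Silencing of MUC1 with doxycycline went with lower transcripts of NFE2L2 and of several of its classical targets, but not of all members. Transcripts of KEAP1, most peroxiredoxins, SOD1, GPX1, GSR, TALDO1 and IDH1 were higher. TXN, PGD, GSS and GPX4 were among the members not called. HMOX1 fell most among the well-counted members, to 0.385 times its control level, and TXNRD1, NQO1 and FTL fell to 0.65, 0.697 and 0.724 times. PRDX5 rose most, 1.45-fold. Of the 37 genes, 35 passed the filter on low counts, and SRXN1 and AKR1B10 did not. At an adjusted p under 0.05 in the fit over all 15355 tested genes, 17 of the 35 were lower, 10 higher and 8 were not called. This is 77.1% of the 35, where 48.7% of all tested genes were called, 25.2% higher and 23.6% lower. The median log2 fold change of the 35 was -0.028, against 0.00058 over all tested genes, and the members went both ways. Only HMOX1 and AKR1C1 passed a fold change of 2 in addition, both lower and none higher, which is 5.71% of the 35. Of all tested genes, 5.95% passed it, 2.21% higher and 3.74% lower. The CPM ranges of the groups were separate for 26 of the 35 (15 lower, 11 higher in shMUC1), against 54.8% of all tested genes. Many members were well counted, so that small changes could be called. GSTP1, with a mean of 3664.5 counts, was called at a log2 fold change of -0.10. The shares were not compared with those of genes of similar counts.

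**Figure D1:**
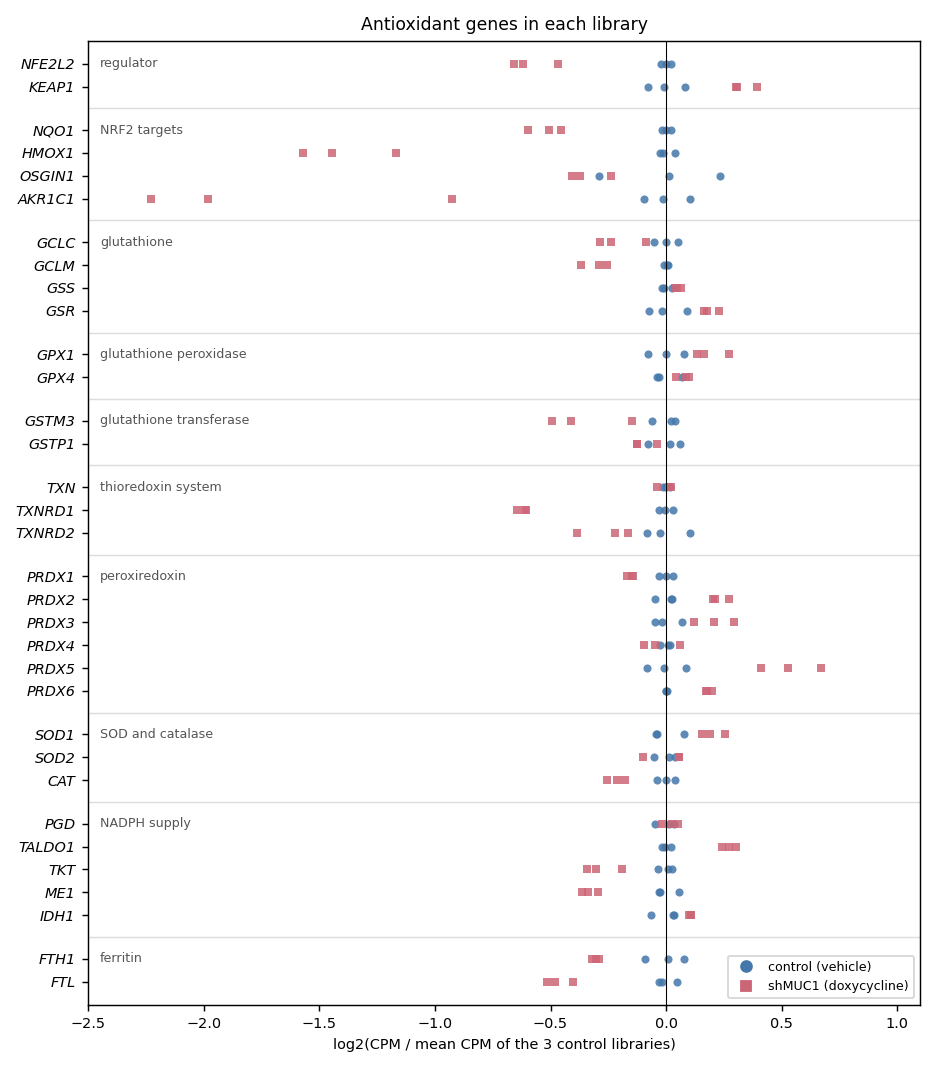
Each point is 1 library, plotted as log2 of its CPM over the mean CPM of the 3 control libraries, for the 33 antioxidant genes that were tested and averaged at least 20 counts, grouped by role. The shMUC1 squares of NFE2L2, NQO1, HMOX1, AKR1C1, TXNRD1 and FTL lie left of every control circle, and those of KEAP1, GSR, GPX1, SOD1 and 4 peroxiredoxins lie right of them.

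Promoter sequences were inspected because many of these genes are known to respond to NRF2 through the antioxidant response element, whose core is TGACNNNGC. RefSeq promoter windows of 300 bases (250 before to 50 after the start site, GRCh38.p14) were matched for 29 of the 37 genes, and the windows of HMOX1, AKR1B10, GSS, GSR, PRDX1, PRDX6, SOD1 and FTH1 are not shown. The core, read on both strands, was found in 4 of 14 members called lower, in 0 of 7 called higher and in 2 of 8 others (PGD and GPX2). It was present in 15% of the promoters of tested genes and in 13.6% of all 27305 promoters, so the shares rest on few windows and describe them only. The 4 windows of genes called lower are given below, 5′ to 3′ on the strand of the gene, with matches to the core in capitals. They are TXNRD1 (chr12:104215529-104215828, plus strand), GCLM (chr1:93909381-93909680, minus strand), ME1 (chr6:83431002-83431301, minus strand) and GSTP1 (chr11:67583562-67583861, plus strand).
TXNRD1: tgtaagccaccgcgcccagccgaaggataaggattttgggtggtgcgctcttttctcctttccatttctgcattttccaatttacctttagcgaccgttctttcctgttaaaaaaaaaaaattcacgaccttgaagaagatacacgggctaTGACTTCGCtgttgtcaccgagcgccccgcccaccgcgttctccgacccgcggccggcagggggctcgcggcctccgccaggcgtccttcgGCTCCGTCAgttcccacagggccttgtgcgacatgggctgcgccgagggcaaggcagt
GCLM: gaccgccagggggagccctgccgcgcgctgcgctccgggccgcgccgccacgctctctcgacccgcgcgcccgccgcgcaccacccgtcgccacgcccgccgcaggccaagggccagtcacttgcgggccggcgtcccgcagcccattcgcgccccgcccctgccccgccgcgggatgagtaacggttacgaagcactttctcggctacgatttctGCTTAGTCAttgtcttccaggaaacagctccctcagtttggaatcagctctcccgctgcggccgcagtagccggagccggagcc
ME1: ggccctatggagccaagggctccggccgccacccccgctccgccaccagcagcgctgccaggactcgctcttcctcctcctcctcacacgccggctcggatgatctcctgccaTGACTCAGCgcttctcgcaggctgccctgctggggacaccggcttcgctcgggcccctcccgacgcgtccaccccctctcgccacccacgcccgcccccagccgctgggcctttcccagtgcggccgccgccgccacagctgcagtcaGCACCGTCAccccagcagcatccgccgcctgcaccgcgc
GSTP1: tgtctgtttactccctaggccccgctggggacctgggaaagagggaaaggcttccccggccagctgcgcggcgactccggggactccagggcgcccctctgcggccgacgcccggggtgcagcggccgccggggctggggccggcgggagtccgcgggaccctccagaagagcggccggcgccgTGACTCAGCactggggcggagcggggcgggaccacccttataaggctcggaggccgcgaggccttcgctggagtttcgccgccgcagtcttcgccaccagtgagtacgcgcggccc
The GCLM match begins 34 bases before the start site and that of GSTP1 66 bases before it. TXNRD1 and ME1 each held 2 matches. The match in GSTP1 and the first in ME1 read TGACTCAGC, which also holds the AP-1 motif TGANTCA and was found in 0.474% of the promoters of tested genes. No match in the NQO1 or FTL window says only that these letters lie outside 300 bases around the annotated start.

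The regulators were examined first. NFE2L2 (GRCh38 chr2:177227595-177392697) was at 255, 259 and 251 CPM in control and at 166, 184 and 162 CPM in shMUC1 libraries. Each shMUC1 library was under the lowest control library, and the mean went from 255 ± 4.01 to 171 ± 12.1 CPM (SD, n = 3 each). The estimate from edgeR was -0.58 on the log2 scale (SE 0.0394, adjusted p 4.52e-15). KEAP1 (GRCh38 chr19:10486120-10503741), the adaptor that marks NRF2 for degradation, was at 33.8, 35.5 and 37.8 CPM in control and at 44.1, 46.9 and 44.2 CPM in shMUC1 libraries. It moved opposite to NFE2L2, again without overlap (log2 fold change 0.33, SE 0.0631, edgeR adjusted p 2.88e-05). NFE2L2 was the only member tested with the word ATCAGTA in an annotated 3′ UTR. An earlier scan of these data had tied this word to lower expression. Here 12.8% of tested genes with a 3′ UTR held it, with a median log2 fold change of -0.12 against 0.027 for those without it. Since the word was taken from these same libraries, the medians lend it no support, and 3′ UTR length was not taken into account. The part of this word in the NFE2L2 value was not tested. NFE2L2 shares 17.6% of its annotated exon bases with AC019080.1 on the same strand, which leaves its count somewhat uncertain.

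The targets that detoxify quinones, heme and carbonyls were all lower where they could be tested (4 of 4, beside 23.6% of all tested genes). NQO1, a quinone reductase and the standard readout of NRF2 activity, was at 272, 265 and 268 CPM in control and at 177, 196 and 189 CPM in shMUC1 libraries. It was lower by edgeR's test (log2 fold change -0.52, SE 0.0365, adjusted p 1.02e-14). AC092115.2 overlaps 17.7% of the NQO1 exon bases on the opposite strand. HMOX1 (GRCh38 chr22:35380361-35394214), heme oxygenase 1, which splits heme into biliverdin, iron and carbon monoxide, was at 33.1, 31.7 and 32 CPM in control. In shMUC1 libraries it was at 11.8, 14.4 and 10.9 CPM, less than any control library by a wide margin. The difference was called (log2 fold change -1.38, SE 0.0895, edgeR adjusted p 1.22e-15), and it ranged from -1.50 to -1.30 over the alternatives tried. HMOX1 is also known to be repressed by BACH1.

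AKR1C1, an aldo-keto reductase of steroids and carbonyls, had few reads, with 40, 41 and 41 counts in control and 10, 23 and 8 in shMUC1 libraries. Its level went from 1.70 ± 0.119 to 0.562 ± 0.289 CPM (SD, n = 3 each, log2 fold change -1.57, SE 0.381, edgeR adjusted p 0.000735). The shMUC1 libraries spread widely but stayed below control. AKR1C1 is close in sequence to AKR1C2 and AKR1C3, which makes the assignment of its reads uncertain. OSGIN1, an oxidative stress-induced growth inhibitor, was at 12, 8.38 and 10.3 CPM in control and at 7.93, 8.7 and 7.74 CPM in shMUC1 libraries. The groups overlapped, and the log2 fold change of -0.33 (SE 0.129, edgeR adjusted p 0.0323) lost its call in several alternatives. Leaving out control replicate 1 gave -0.20, and the call was also lost without control replicate 3, without shMUC1 replicate 1 or 3, with DESeq2 (-0.33) and with limma-voom (-0.31). AKR1B10, another aldo-keto reductase and NRF2 target, had 4 counts in control replicate 3 and 0 in the other 5 libraries, where 0 counts allow up to between 0.108 and 0.161 CPM (3 counts per library, counting error only). If both reads of a pair were counted, this limit would be higher.

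**Figure D2:**
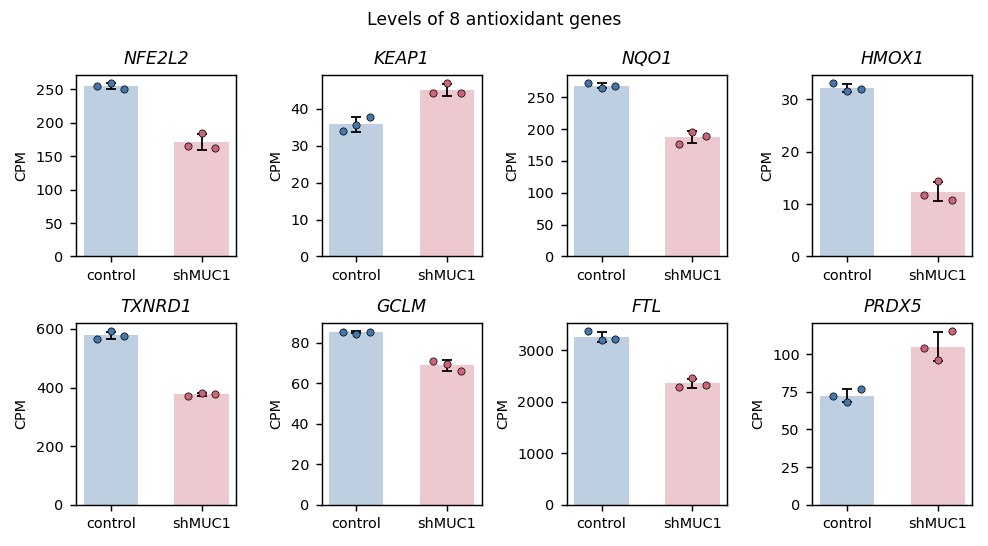
CPM of NFE2L2, KEAP1, NQO1, HMOX1, TXNRD1, GCLM, FTL and PRDX5 in control and shMUC1 cells, each axis starting at 0. Points are libraries, bars are means and error bars are SD (n = 3 each). Groups do not overlap in any panel, with KEAP1 and PRDX5 higher and the other 6 lower in shMUC1 cells.

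Glutathione is made by glutamate-cysteine ligase, with a catalytic (GCLC) and a modifier (GCLM) subunit, then by glutathione synthetase (GSS), and is kept reduced by glutathione reductase (GSR). GCLM was at 85.2, 84.5 and 85.4 CPM in control and at 71.2, 69.5 and 65.8 CPM in shMUC1 libraries (log2 fold change -0.30, SE 0.0469, edgeR adjusted p 1.21e-06). GCLC was at 31.8, 30.7 and 29.6 CPM in control and at 26.1, 28.9 and 25.2 CPM in shMUC1 libraries (log2 fold change -0.20, SE 0.0738, edgeR adjusted p 0.0264). Both ligase subunits were lower without overlap, but the call of GCLC was lost without control replicate 1 or 2 and without shMUC1 replicate 1 or 3 (log2 fold changes of -0.17, -0.20, -0.17 and -0.16). GSR went the other way, from 65 ± 3.77 to 74 ± 1.78 CPM (SD, n = 3 each, edgeR adjusted p 0.00211). GSS was at 72.4 ± 1.11 and 75 ± 0.72 CPM (SD, n = 3 each) and was not called (log2 fold change 0.05, SE 0.0467, edgeR adjusted p 0.397). Per kilobase of exon the modifier was the more abundant ligase subunit, at 15.7 ± 0.0888 CPM per kb against 3.55 ± 0.128 CPM per kb for GCLC in control (SD, n = 3 each).

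Glutathione peroxidases reduce peroxides at the expense of glutathione, and GPX4 alone among them reduces lipid hydroperoxides within membranes and so protects against ferroptosis. GPX4 was at 99.2, 92.7 and 92.1 CPM in control and at 100.4, 101 and 97.5 CPM in shMUC1 libraries. The groups overlapped, and the log2 fold change of 0.08 (SE 0.0435) was not called (edgeR adjusted p 0.142). GPX1, the abundant cytosolic form, was higher, at 82.4 ± 4.25 against 72.2 ± 3.9 CPM (SD, n = 3 each, edgeR adjusted p 0.00154). GPX2 and GPX3, the gastrointestinal and plasma forms, had 4 to 18 and 5 to 22 counts per library, and no difference was detectable at this depth. Of the glutathione transferases, GSTM3 was at 16.5, 16.3 and 15.4 CPM in control and at 14.5, 11.4 and 12.1 CPM in shMUC1 libraries. It was lower without overlap (log2 fold change -0.34, SE 0.103, edgeR adjusted p 0.00623), although without shMUC1 replicate 2 the value of -0.26 was not called. GSTP1, much the more abundant at 158 ± 7.52 and 148 ± 5.15 CPM (SD, n = 3 each), overlapped between groups. Its log2 fold change of -0.10 (SE 0.0402, edgeR adjusted p 0.0401) lost its call without control replicate 1 or 3, without shMUC1 replicate 1 or 2, with no low-count filter and with DESeq2.

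In the thioredoxin system TXNRD1 and TXNRD2 fell and thioredoxin itself did not pass the test. TXNRD1 (GRCh38 chr12:104215779-104350305), the cytosolic selenoenzyme that regenerates thioredoxin from NADPH, was at 567, 591 and 577 CPM in control and at 369.8, 380.3 and 379 CPM in shMUC1 libraries. The estimate from edgeR was -0.62 on the log2 scale (SE 0.0305, adjusted p 3.87e-19). This adjusted p was the smallest among the members. TXNRD2, its mitochondrial counterpart, was at 25.2 ± 1.7 and 21.1 ± 1.65 CPM (SD, n = 3 each, log2 fold change -0.26, SE 0.0827, edgeR adjusted p 0.00853). The call of TXNRD2 was lost without control replicate 3 (-0.22) and without shMUC1 replicate 1 (-0.19). TXNRD3, another reductase of this family, which is in the further list below and was chosen after its values were seen, went the other way, at 9.35, 8.29 and 7.55 CPM in control and at 9.63, 11.1 and 10.5 CPM in shMUC1 libraries (log2 fold change 0.31, SE 0.121, edgeR adjusted p 0.0312). Its call was lost with DESeq2 (0.31), without control replicate 2 (0.31) or 3 (0.23) and without shMUC1 replicate 2 (0.26) or 3 (0.31). TXN was at 236 ± 2.36 and 236 ± 5.49 CPM (SD, n = 3 each, log2 fold change -0.0027, SE 0.0339, edgeR adjusted p 0.957). SRXN1, sulfiredoxin, which repairs overoxidized peroxiredoxins and is a known NRF2 target, had 5, 12 and 8 counts in control and 8, 7 and 12 in shMUC1 libraries. These values cannot be taken as its level, since 85% of its annotated exon bases are shared with AL121758.1 on the same strand.

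Peroxiredoxins, the abundant thiol peroxidases that thioredoxin keeps reduced, were higher for 4 of 6 members and lower for 1, beside 25.2% and 23.6% of all tested genes. PRDX5 (GRCh38 chr11:64318088-64321811), found in mitochondria, peroxisomes and cytosol, was at 71.9, 68.2 and 76.7 CPM in control and at 104, 95.9 and 115 CPM in shMUC1 libraries. Every shMUC1 library was well above control (log2 fold change 0.53, SE 0.053, edgeR adjusted p 8.22e-11). PRDX2, PRDX3 (the mitochondrial matrix form) and PRDX6 (the form that uses glutathione) had log2 fold changes of 0.23, 0.21 and 0.18, each without overlap and with edgeR adjusted p of 0.000107, 5.52e-05 and 4.11e-06. PRDX1, the most abundant peroxiredoxin per kilobase of exon and the one best known as an NRF2 target, was instead lower, at 733 ± 6.78 against 814 ± 17 CPM (SD, n = 3 each). Its log2 fold change of -0.15 (SE 0.0282, edgeR adjusted p 2.33e-05) was small. A share of 24.9% of its exon bases overlaps MMACHC on the opposite strand. PRDX4, the form of the endoplasmic reticulum, was not called (-0.03, SE 0.044, edgeR adjusted p 0.641).

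Superoxide dismutases turn superoxide into hydrogen peroxide, which catalase then breaks down in peroxisomes. SOD1, the cytosolic copper-zinc enzyme, was higher, at 144 ± 5.05 against 126 ± 6.14 CPM (SD, n = 3 each, log2 fold change 0.20, edgeR adjusted p 0.000135). SOD2, the mitochondrial manganese enzyme, was at 219, 234 and 229.5 CPM in control and at 236, 236 and 212 CPM in shMUC1 libraries. The groups overlapped (log2 fold change 0.0067, SE 0.0384, edgeR adjusted p 0.902). CAT was lower without overlap, from 53.8, 55.2 and 56.7 CPM in control to 46.3, 48.8 and 47.7 CPM in shMUC1 libraries (log2 fold change -0.22, SE 0.0551, edgeR adjusted p 0.00128).

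Genes grouped under the supply of NADPH, the reductant on which both glutathione and thioredoxin depend, were divided. TKT and TALDO1 are in this group although the branch they belong to does not itself make NADPH. ME1, cytosolic malic enzyme, was at 73.1, 72.9 and 77.2 CPM in control and at 60.7, 58.8 and 57.8 CPM in shMUC1 libraries (log2 fold change -0.33, SE 0.0498, edgeR adjusted p 6.69e-07). TKT, transketolase of the nonoxidative pentose phosphate branch, fell from 431 ± 8.89 to 355 ± 19.3 CPM (SD, n = 3 each, edgeR adjusted p 1.4e-08), whereas TALDO1, transaldolase of the same branch, rose from 74.2 ± 0.998 to 89.8 ± 1.86 CPM (SD, n = 3 each, edgeR adjusted p 3.29e-06). PGD, of the oxidative branch, was not called (0.02, SE 0.0376, edgeR adjusted p 0.687). IDH1, cytosolic isocitrate dehydrogenase, was slightly higher (log2 fold change 0.11, SE 0.0437, edgeR adjusted p 0.0423). That call was lost without control replicate 3 (0.06), without any 1 of the 3 shMUC1 replicates, with library totals only, with DESeq2 and with a minimum mean of 50 counts.

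Ferritin stores iron in a shell of heavy chains (FTH1, with ferroxidase activity) and light chains (FTL), and both genes are induced by NRF2. FTL (GRCh38 chr19:48965301-48966878) was the most abundant member per kilobase of exon, at 3702 ± 108 CPM per kb in control (SD, n = 3). It was at 3359, 3186 and 3207 CPM in control and at 2274, 2457 and 2327 CPM in shMUC1 libraries. The fall was among the best supported (log2 fold change -0.47, SE 0.0273, edgeR adjusted p 5.81e-17). FTL by itself made up 0.327% ± 0.00988 of all counts in control and 0.233% ± 0.00835 in shMUC1 libraries (SD, n = 3 each). The other 36 members together made up 0.52% ± 0.0076 and 0.466% ± 0.00422 (SD, n = 3 each). FTH1 was at 283, 264 and 297 CPM in control and at 228, 225 and 230.1 CPM in shMUC1 libraries (log2 fold change -0.30, SE 0.0368, edgeR adjusted p 8.33e-09). The counts on 24 rows of FTH1 pseudogenes equalled 78.3% of those on FTH1, and BEST1 overlaps 62.4% of its exon bases on the opposite strand. With the pseudogene rows added, an alternative chosen after seeing the data, FTH1 gave -0.27 (edgeR adjusted p 2.98e-09) and FTL, with 16 such rows, gave -0.47.

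**Figure D3:**
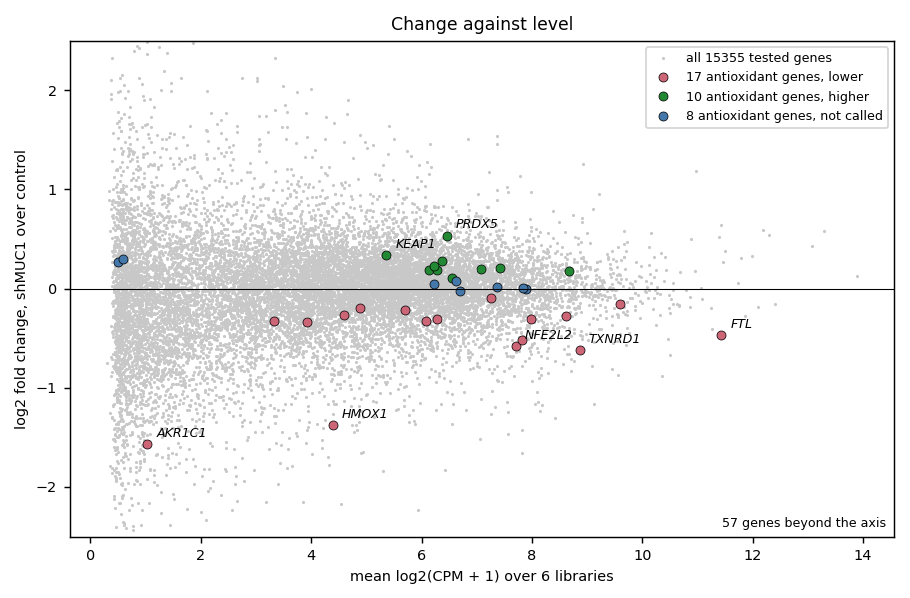
Log2 fold change of shMUC1 over control against the mean log2(CPM + 1) of the 6 libraries, for all 15355 tested genes (grey) and the 35 tested antioxidant genes (coloured by call). The antioxidant genes lie within the cloud of all genes, with HMOX1 and AKR1C1 at its lower side, and 57 genes lie beyond the vertical axis.

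A further 77 genes of the NRF2 pathway and of redox metabolism, listed by role, were read from the same fit. Of these, 71 were tested, with 30 higher, 17 lower and 24 not called, which is 66.2% called beside 48.7% of all tested genes. Here too, genes of similar counts were not compared. Their median log2 fold change was 0.07. Genes marked below as chosen by value were picked after their values were seen, and the others by rule.

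Among 9 regulators and partners of NRF2, 3 were higher and 4 lower, beside 25.2% and 23.6% of all tested genes, so that the share higher was near that of all genes. SQSTM1 (p62), an NRF2 target that also sequesters KEAP1, was at 563, 579 and 570 CPM in control and at 399.9, 417 and 384 CPM in shMUC1 libraries (log2 fold change -0.51, SE 0.0319, edgeR adjusted p 3.69e-16). MGAT4B and MRNIP overlap its exons on the opposite strand, the larger overlap being 20.7% of its exon bases. The small MAF partners diverged, with MAFG lower (-0.24, edgeR adjusted p 0.000326) and MAFK higher (0.60, edgeR adjusted p 3.25e-06). MAFF (chosen by value) was also higher (0.24, edgeR adjusted p 0.0124). TMEM184A overlaps 18.15% of the MAFK exon bases on the opposite strand. BACH1, the repressor that competes with NRF2, went from 135 ± 1.67 to 126 ± 5.94 CPM (SD, n = 3 each, edgeR adjusted p 0.037) and lost its call without control replicate 1 (-0.09), without shMUC1 replicate 1 (-0.06) and with no low-count filter (-0.09). CUL3, the ligase scaffold that KEAP1 serves, was not called (-0.05, SE 0.0436, edgeR adjusted p 0.346).

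Among 9 genes of cystine and glutathione handling, 3 were higher and 4 lower, the same counts as for the regulators and beside the same 25.2% and 23.6%. SLC7A11 (xCT), the cystine importer that feeds glutathione synthesis and a target of NRF2 and ATF4, was at 126, 127 and 123 CPM in control and at 82.3, 84.8 and 72.4 CPM in shMUC1 libraries. It was lower without overlap (log2 fold change -0.65, SE 0.0469, edgeR adjusted p 2.74e-14). SLC3A2, the heavy chain that carries xCT to the membrane (chosen by value), was higher instead (log2 fold change 0.56, SE 0.0318, edgeR adjusted p 2.37e-17). CHAC1, which degrades glutathione, was higher, at 7.34 ± 0.889 against 3.23 ± 0.393 CPM (SD, n = 3 each, log2 fold change 1.19, SE 0.162, edgeR adjusted p 9.83e-08). ABCC2, an exporter of glutathione conjugates, was at 13.5, 14.5 and 14.9 CPM in control and at 5.86, 5.55 and 6.24 CPM in shMUC1 libraries. Its log2 fold change of -1.29 (SE 0.118, edgeR adjusted p 1.1e-11) was the largest fall in the further list.

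Of 16 other glutathione enzymes tested, 8 were higher, 2 lower and 6 not called, where 25.2% of all tested genes were higher and 23.6% lower. GPX8, a peroxidase of the endoplasmic reticulum, was among the lower ones (-0.41, SE 0.0483, edgeR adjusted p 3.54e-09). In the group of other thioredoxin, methionine sulfoxide reductase and sestrin genes, 6 of 11 were higher and 1 lower, again beside 25.2% and 23.6% of all tested genes. TXNIP, which binds and inhibits thioredoxin, was at 23.4, 23.4 and 26.7 CPM in control and at 53.6, 55.9 and 53.6 CPM in shMUC1 libraries (log2 fold change 1.15, SE 0.066, edgeR adjusted p 3.56e-17). The sestrins, stress-induced regulators of mTORC1, were split between SESN2 (0.60, edgeR adjusted p 2.34e-09) and SESN3 (-0.90, edgeR adjusted p 3.99e-08), both without overlap. Other detoxification enzymes had 1 gene higher and 4 lower of 9 tested, so that 55.6% were called, near the 48.7% of all tested genes.

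Among genes listed under other NADPH and redox supply, 5 of 8 were higher and 1 lower, beside 25.2% and 23.6% of all tested genes. RPIA, which isomerizes ribose 5-phosphate and does not itself make NADPH, rose from 40.1 ± 1.51 to 66 ± 2.51 CPM (SD, n = 3 each, log2 fold change 0.72, edgeR adjusted p 1.52e-13). Heme and iron genes were higher for 4 of 8 and lower for 1, beside the same 25.2% and 23.6%. HMOX2, the constitutive heme oxygenase, rose (0.58, SE 0.0964, edgeR adjusted p 4.21e-06) while HMOX1 fell. SLC40A1 (ferroportin), the iron exporter, was lower (-0.41, SE 0.132, edgeR adjusted p 0.01), a call lost without shMUC1 replicate 2 (-0.35). TFRC, the transferrin receptor, and NCOA4, which delivers ferritin to autophagy (both chosen by value), were higher, with log2 fold changes of 0.19 and 0.51.

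**Figure D4:**
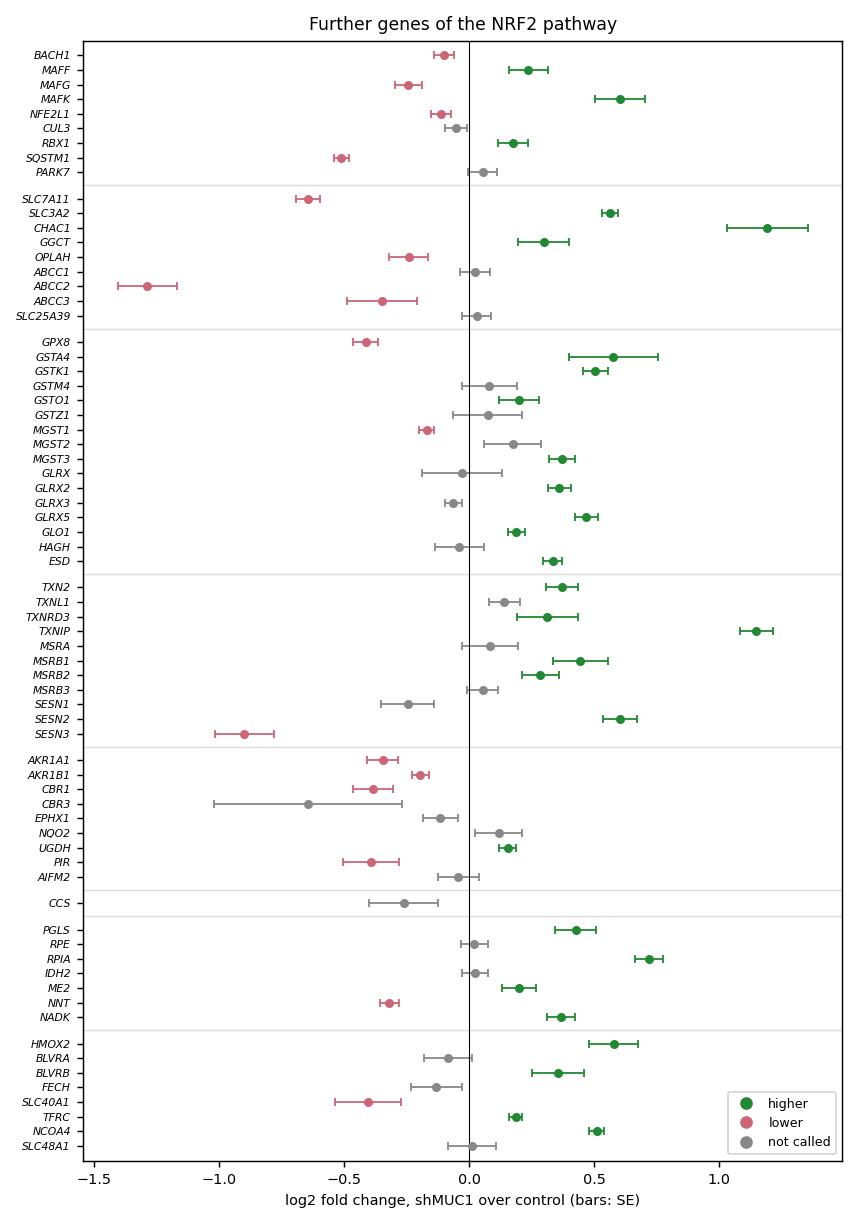
Log2 fold changes of shMUC1 over control with SE for 70 of the 71 tested genes of the further NRF2 pathway list, in blocks by role and coloured by call at an adjusted p under 0.05. CHAC1 and TXNIP lie farthest right and ABCC2 farthest left.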

How the data were processed

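Libraries were made from total RNA with a stranded mRNA kit. For each gene symbol the authors deposited unnormalised read counts, and the submitters' processing notes name STAR 2.7.9a, featureCounts, DESeq2 1.24.0 and the build GRCh38.p7. The annotation release and the strand setting are not given in the sources used here. Total counts ran from 18678307 to 27825546. Of values from 1 to 20 counts, 69.6% ± 0.706 (control) and 70.2% ± 0.319 (shMUC1; SD, n = 3 each) were even, a sign that both reads of a pair may have been counted, and halved counts were therefore tried. Replicate pairs differed by more than counting noise.

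Counts were tested with edgeR 4.0.16 in R 4.3.3 (quasi-likelihood test, TMM, filterByExpr, group as the only term, two-sided, Benjamini-Hochberg over all genes tested). SE were derived from the F statistic. The fit was tested on simulated data. Alternatives were DESeq2 1.42.0 and its size factors, library totals, limma-voom (limma 3.58.1), fitting all genes, a minimum mean of 50 counts, a replicate block, halved counts, each library left out, and a fold change over 2. Adding pseudogene rows to members was chosen after seeing the data. Positions, exon lengths and 3′ UTRs came from GENCODE 29 (GRCh38), and promoters from RefSeq.

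Members and lists were chosen with earlier results of these data known. Values per library were given by rule for 13 members fixed by name and the 12 largest called changes among genes averaging 100 counts or more. From the further list, 6 genes were fixed and the 6 largest rises and 6 largest falls were named, among called genes that averaged 100 counts or more and whose groups did not overlap. Values of 1 gene of the further list are not reported here, although the counts of that list include it.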

Additional observations from a re-analysis of the deposited data

How the results depend on the processing

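Over 15 alternatives, 9 or 10 members were called higher and 13 to 17 lower. Requiring a fold change over 2 left 0 higher and 2 lower members, 2 higher and 1 lower further genes, and 339 higher and 575 lower of all genes. The member median was -0.086 with a minimum mean of 50 counts and -0.107 with counts halved, and from -0.047 (without control replicate 2) to -0.011 (without shMUC1 replicate 1) without one library. GPX2 and GPX3 had values in only 13 of the 15 alternatives and AKR1C1 in 14. Medians were thus not all taken over the same members, and the minimum mean of 50 counts left out all of these genes. The further median was 0.052 with library totals only, 0.055 with a minimum mean of 50 counts, and from 0.044 (without shMUC1 replicate 1) to 0.107 (without shMUC1 replicate 2) without one library. Of the 8 members not called, GSS and GPX4 kept their sign in all 15 alternatives and 6 turned sign in at least 1: GPX2 ranged from -0.035 to 1.07 and GPX3 from -0.047 to 1.12 without one library, TXN was 0.0075 with no low-count filter and ranged from -0.016 to 0.019, PRDX4 ranged from -0.072 to 0.011, SOD2 was -0.015 with library totals only and -0.016 with a minimum mean of 50 counts and ranged from -0.017 to 0.058, and PGD was -0.0016 and -0.0022 under those and ranged from -0.0026 to 0.042. The causes were not tested. Replicate numbers did not pair the libraries (correlations of deviations 0.018, -0.031 and -0.036), and the replicate block gave 10 higher and 17 lower members, MUC1 at -0.86, 30 higher and 18 lower further genes, and changed no call among the members. Counts were lowest for AKR1C1, AKR1B10, GPX2, GPX3 and SRXN1, and depth limits the first 4 of these. For SRXN1 shared exon bases leave its level unknown.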
